A study of Mus musculus with 6 samples.

Results

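The E proteins and their Id inhibitors are 6 genes here: the E protein genes *Tcf3*, *Tcf4* and *Tcf12*, and the inhibitor genes *Id1*, *Id2* and *Id3*. They were picked out of the count tables by symbol, and all 6 were among the 25239 genes listed. RNA-seq was done on splenic T cells that were sorted as TCRβ+, CD4+, CD44- and CD127+ from C57BL/6 mice, with 2 libraries for each of 3 genotypes and 6 libraries in all. *Ikzf3* +/+ mice carried no variant allele, *Ikzf3* +/N159S mice carried 1 and *Ikzf3* N159S/N159S mice carried 2. The allele was made in the germline by CRISPR-Cas9, so every cell of a carrier mouse held it, and the cells had no other treatment. The age of these mice was not given in the sources used here. *Ikzf3* encodes Aiolos, a zinc finger protein of the Ikaros family that lymphocytes express, and N159S replaces an asparagine with a serine in it. The question asked was which genes differ in T cells with 1 or 2 variant alleles.

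E proteins are basic helix-loop-helix factors that pair with each other and bind the E box, a short DNA motif. *Tcf3* encodes E2A, *Tcf12* encodes HEB and *Tcf4* encodes E2-2, and all are distinct from *Tcf7*, which encodes the T cell factor TCF-1 of another family. Id proteins have the helix-loop-helix but no basic region, so that an E protein paired with an Id protein cannot bind DNA. In T cell development E2A and HEB act in thymocytes, Id3 is induced by T cell receptor signals through Egr factors, and both Id2 and Id3 restrain E proteins in mature T cells. E2-2 is best known as the factor that sets plasmacytoid dendritic cell identity, and it is also expressed in B cells.

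The libraries held 11696461 to 17317260 reads on genes and 14803 to 18147 genes with at least 1 read. Levels below are in CPM, the reads of a gene relative to all reads on genes, scaled by TMM, and FDR is the adjusted p of edgeR's quasi-likelihood test over the 12117 tested genes, with DEGs at an FDR under 0.05. All 6 members passed the filter on low counts. *Ikzf3* itself stood at 157 and 154 CPM in +/+ T cells, at 168 and 152 CPM with 1 variant allele and at 197 and 202 CPM with 2. Its FDR was 0.0523 in N159S/N159S against +/+, and gene counts do not separate the alleles. *Xist* was at 730 and 824 CPM in the +/N159S libraries and at 0.772 to 1.98 in the other 4, and the Y-linked *Ddx3y*, *Eif2s3y*, *Kdm5d* and *Uty* had the opposite pattern. Sex-linked transcripts therefore differed wherever +/N159S was compared, and the sex of the mice cannot be told apart from that genotype.

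The sorted cell type was checked by marker lists. The CD4 T cell markers *Cd3e*, *Cd3g*, *Cd4* and *Lat* summed to 2084 to 2507 CPM. The naive T list, led by *Tcf7* and *Il7r*, summed to 4647 and 4512 CPM in +/+, 3999 and 3800 in +/N159S, and 3647 and 3880 in N159S/N159S. The 9 B cell markers, with the most reads on *Cd74*, summed to 154 and 229 CPM in +/+, 362 and 600 in +/N159S, and 149 and 101 in N159S/N159S T cells. Myeloid markers, led by *Cd68* and *Itgam*, summed to 27.9 to 45.8 CPM, CD8 and NK markers, led by *Klrd1* and *Cd8b1*, to 15.2 to 46.9, and effector and memory markers, led by *Cd44* and *Cxcr3*, to 19.9 to 52.8. Treg markers, led by *Ctla4* and *Ikzf2*, summed to 47.1 to 102 CPM, with the highest sums in both +/N159S libraries. Erythroid markers, led by *Alas2* and *Klf1*, reached at most 7.31 CPM, and the endothelial and stromal list of 178 to 236 CPM was nearly all *Pecam1*, with *Cdh5* next. Against +/+, N159S/N159S T cells were lower in *Lef1* of the naive list, *Cd79a*, *Ms4a1* and *Fcer2a* of the B cell list, *Ly6d*, *Cd8b1* and *Il2ra*, and higher in *Bst2*. Of these, *Cd8b1* and *Fcer2a* were called in all 6 fits that left out a library, *Ms4a1* in 5, *Cd79a* in 4, *Lef1*, *Ly6d* and *Il2ra* in 3 and *Bst2* in 2, and *Il2ra* was not called by DESeq2 or in a fit of only these genotypes. The +/N159S cells were higher than +/+ in *Cd79b*, *Cd22*, *Cd74*, *Cxcr3* and *Ikzf2*, and lower in *Fcer2a* and *Il7r*. Each of these +/N159S calls was lost in some fit that left out a library. Between the carriers, N159S/N159S was lower in 8 of the 9 B cell markers (not *Fcer2a*) and in *Ly6d*, *Cd8a*, *Cd8b1*, *Ccl5*, *Cxcr3* and *Il2ra*. *Cxcr3* is on the X chromosome, so genotype and sex cannot be told apart for it in either contrast with +/N159S. Of these calls between carriers, only those of *Cd22*, *Cd74*, *Cd79a* and *Ms4a1* were kept in every fit that left out a library.

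The promoters of *Id2* and *Id3*, the inhibitor genes with the most reads, are shown because Aiolos and E proteins both act by binding DNA. Each is the 250 bases before a RefSeq transcription start on GRCm38.p6, written 5′ to 3′ on the strand of the gene. Both windows lie inside the gene spans given further below, which come from the GENCODE annotation and begin upstream of these RefSeq starts. Capitals mark a match to CANNTG, the E box.
Id2, chr12:25096093-25096342, minus strand: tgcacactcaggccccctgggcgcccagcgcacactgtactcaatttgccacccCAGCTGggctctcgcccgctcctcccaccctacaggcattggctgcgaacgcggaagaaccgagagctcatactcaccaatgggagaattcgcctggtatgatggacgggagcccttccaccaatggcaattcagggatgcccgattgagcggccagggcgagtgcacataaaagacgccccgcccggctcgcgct
Id3, chr4:136143572-136143821, plus strand: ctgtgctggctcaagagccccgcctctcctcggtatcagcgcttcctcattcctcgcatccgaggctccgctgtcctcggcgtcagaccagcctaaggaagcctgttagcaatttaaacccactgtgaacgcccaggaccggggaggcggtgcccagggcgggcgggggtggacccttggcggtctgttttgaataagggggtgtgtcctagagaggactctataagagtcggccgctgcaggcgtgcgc

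The *Id2* window held 1 E box, CAGCTG, whose first base lay at position -196 from the start, and the *Id3* window held none. The motif TGGGAA, the core that Ikaros family factors bind, was searched on both strands as CANNTG was (a motif that is its own reverse complement), and neither window held it. Windows were at hand for 4 of the 6 members, in 6 entries. The *Tcf3* window had 1 E box, the 3 *Tcf12* windows had 1, 1 and 0, and TGGGAA was in none of them. Among all 32851 windows of this length, 66.2% held CANNTG and 21.6% held TGGGAA. These matches describe letters in the window, and binding was not measured here.

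Per length of exon, *Id2* and *Tcf3* were the most abundant of the 6 transcripts. CPM per kb had a median over the 6 libraries of 64.5 for *Id2* (55.9 to 69.6), 39.4 for *Tcf3* (36.4 to 42.4), 22.9 for *Id3* (21.2 to 24.2), 18.0 for *Tcf12* (15.8 to 18.9), 1.23 for *Id1* (0.934 to 1.47) and 1.15 for *Tcf4* (0.605 to 1.38). The ranges of neighbours in this order did not overlap, except those of *Id1* and *Tcf4*, which cannot be ordered. The lengths were exons of transcripts paired with RefSeq. With every annotated exon counted the ranges of *Id2* (29.1 to 36.2) and *Tcf3* (28.7 to 33.5) overlapped, and those of *Id1* and *Tcf4* no longer did. These T cells thus held mainly E2A and HEB transcripts among E proteins and mainly *Id2* and *Id3* transcripts among inhibitors.

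**Figure D1:**
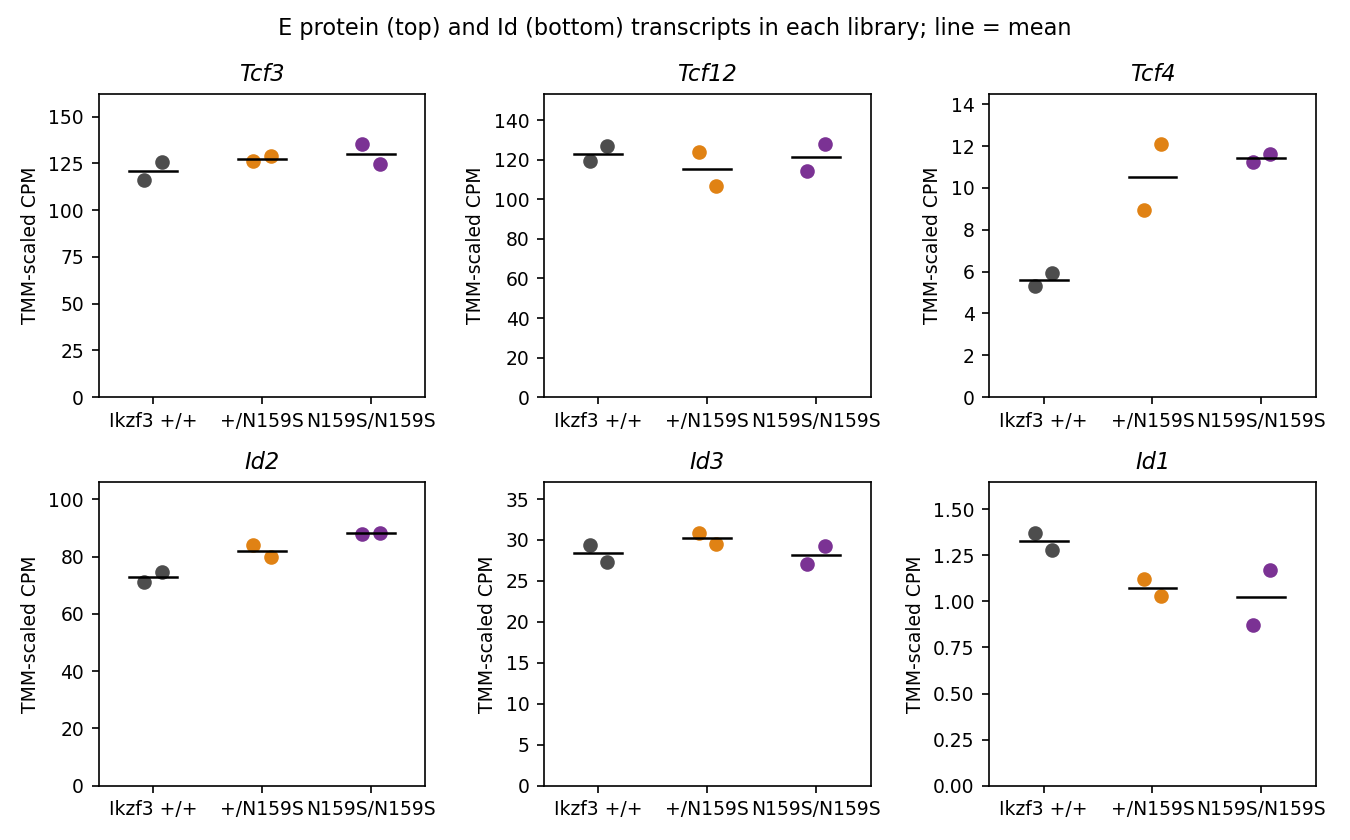
TMM-scaled CPM (vertical axis, from 0, a scale of its own in each panel) of the 6 genes in the 2 libraries of each *Ikzf3* genotype, where points are libraries and lines are means. *Tcf4* was at 5.32 and 5.92 CPM in +/+ and between 8.96 and 12.1 CPM in the 4 carrier libraries, and *Id2* was at 71.0 and 74.7 CPM in +/+ and between 79.7 and 88.3 CPM in carriers.

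Of the 6 genes, *Tcf4* alone was a DEG, and it rose in *Ikzf3* N159S/N159S T cells. It lies at chr18:69343356-69689079 on the plus strand of GRCm38, and 1 annotated gene overlaps it. It had 62 to 193 reads in a library. Its level was 5.32 and 5.92 CPM in the +/+ libraries, 8.96 and 12.1 CPM in those of +/N159S, and 11.2 and 11.6 CPM in those of N159S/N159S. All 4 carrier libraries lay above both +/+ libraries, and the carriers overlapped each other.

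In N159S/N159S against +/+, *Tcf4* was 2.03-fold higher (95% interval 1.49 to 2.76), a log2 fold change of 1.02 (SE 0.20, edgeR FDR 0.0142). The group means were 11.4 ± 0.295 and 5.62 ± 0.421 CPM (SD, n = 2). By comparison 631 of 12117 genes, or 5.21%, were DEGs in this contrast, and 3.10% were DEGs with a higher level. DESeq2 also called *Tcf4* and no other member. The unadjusted edgeR p was under 0.05 for 2 members, *Tcf4* and *Id2*, and for 2228 of all 12117 tested genes. The call was kept in 7 of 7 alternative fits (edgeR or DESeq2 FDR 5.02e-05 to 0.0233). It was lost when +/+ replicate 1 (edgeR FDR 0.0889), +/+ replicate 2 (0.0656) or N159S/N159S replicate 2 (0.0606) was left out, with log2 fold changes of 0.95 to 1.10 over the 6 fits that left out a library.

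In +/N159S against +/+, *Tcf4* averaged 10.5 ± 2.22 CPM (SD, n = 2), a log2 fold change of 0.90 (SE 0.20, 95% interval 0.45 to 1.35), and did not pass at an edgeR FDR of 0.0538. DEGs were 1.75% of all genes in this contrast and 0 of the 6 members, and DESeq2 called 0 of them. The unadjusted edgeR p was under 0.05 for 1 member, *Tcf4*, and for 1977 of all 12117 tested genes. *Tcf4* passed with no filter on low counts (edgeR FDR 0.00126), with a term for genes detected (0.00542) and without +/N159S replicate 1 (0.0319). Between N159S/N159S and +/N159S the difference was 0.12 on the log2 scale (95% interval -0.29 to 0.53, edgeR FDR 0.872). That contrast had 1.49% DEGs among all genes and 0 among the members by edgeR, by DESeq2 or at an unadjusted p under 0.05. Against the midpoint of the other genotypes, the test of departure from additive dosage, *Tcf4* in +/N159S was 0.39 higher on the log2 scale (unadjusted edgeR p 0.0390, edgeR FDR 0.410). DEGs of that test were 0.933% of all genes and 0 of the members (1 with an unadjusted p under 0.05, and 0 by DESeq2). Of all 12117 tested genes, 1362 had an unadjusted edgeR p under 0.05 in it.

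In bulk RNA a change in the share of a cell type and a change in RNA per cell cannot be told apart, and *Tcf4* is expressed outside T cells. The B cell markers in N159S/N159S libraries (149 and 101 CPM summed) were below those in +/+ (154 and 229), though the nearest sums were close. Of the 9 markers, 0 were higher and 3 lower by the test, and *Tcf4* was higher. *Cd79b* had a log2 fold change of 0.12 (edgeR FDR 0.877). *Fcer2a*, among the 3, was also lower in +/N159S (-2.74, edgeR FDR 0.00818), where *Cd79b*, *Cd22* and *Cd74* were higher. The 9 genes thus did not all move together. In +/N159S libraries both the B cell sum (362 and 600 CPM) and *Tcf4* were above +/+. In +/N159S the library with more B cell signal (600 CPM) had 12.1 CPM of *Tcf4*, and the other 8.96. In N159S/N159S the library with more B cell signal (149 CPM) had 11.2 CPM of *Tcf4*, and the other 11.6, a small gap. The part of B cell RNA in the *Tcf4* values of the carriers was not tested. Of the 7 plasmacytoid dendritic markers, *Siglech* was at 0 to 0.172 CPM, *Klk1* at 0 to 0.172 and *Cox6a2* at 0 to 0.118, in no case above 2 reads in a library. The sum of that list was 68.2 and 74.7 CPM in +/+, 87.9 and 87.8 in +/N159S, and 82.6 and 80.8 in N159S/N159S. *Bst2*, an interferon-induced gene, made most of it and was higher in N159S/N159S than in +/+ (log2 fold change 0.53, edgeR FDR 0.0129), a call lost without any 1 of the 4 libraries compared. The other 3 tested genes of the list had negative values in that contrast. *Ly6d* was lower (-1.65, edgeR FDR 0.0267), *Irf8* was at -0.55 (edgeR FDR 0.136) and *Ccr9* at -0.53 (edgeR FDR 0.278). The median of the 4 tested genes was -0.54. Like the B cell sum, *Ly6d* and *Irf8* were lowest in both N159S/N159S libraries, and the part of B cell RNA in them was not tested.

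**Figure D2:**
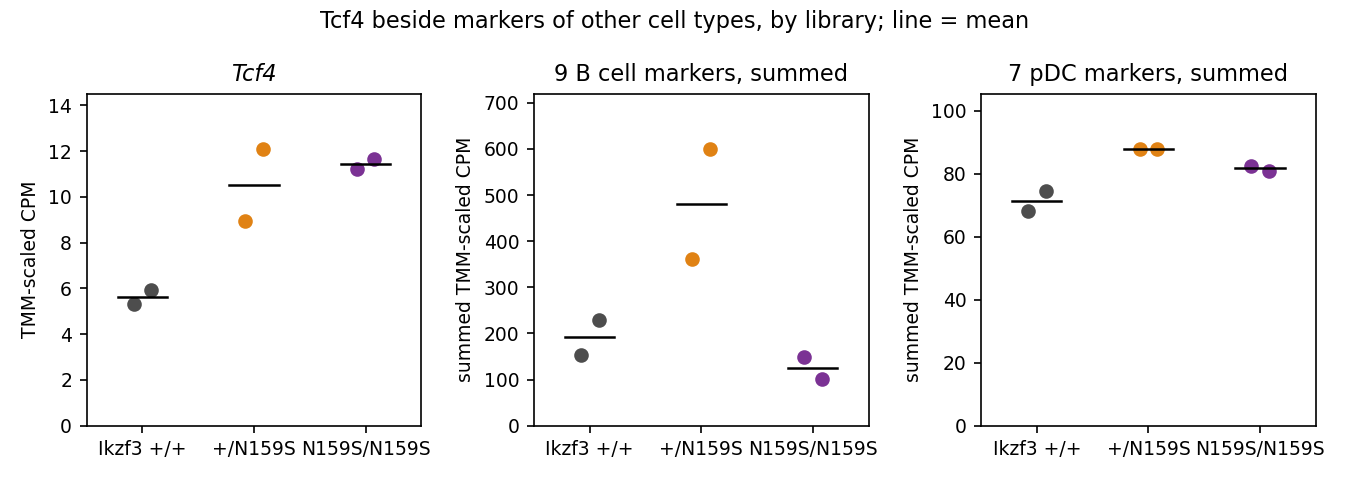
*Tcf4* (left), the sum of 9 B cell markers (middle) and the sum of 7 plasmacytoid dendritic cell (pDC) markers (right) in TMM-scaled CPM from 0, by genotype, where points are libraries and lines are means. *Tcf4* in both N159S/N159S libraries (11.2 and 11.6 CPM) lay above +/+, and their B cell sums (149 and 101 CPM) lay below both +/+ sums (154 and 229 CPM).

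The other E protein transcripts differed little between genotypes. *Tcf3*, at chr10:80409514-80433647 on the minus strand, was at 116 and 126 CPM in +/+, 126 and 129 in +/N159S, and 135 and 125 in N159S/N159S T cells. Its N159S/N159S libraries overlapped those of +/+, with a log2 fold change of 0.11 (95% interval -0.11 to 0.32, edgeR FDR 0.627), and in +/N159S it was 0.078 (-0.13 to 0.29, edgeR FDR 0.740). *Tcf12*, at chr9:71842688-72111871 on the minus strand, was at 119 and 127 CPM in +/+, 124 and 107 in +/N159S, and 115 and 128 in N159S/N159S. All 3 groups overlapped. Its log2 fold change was -0.022 in N159S/N159S (-0.26 to 0.22, edgeR FDR 0.953) and -0.094 in +/N159S (-0.33 to 0.14, edgeR FDR 0.716). Neither N159S/N159S interval reached 0.57, the lower limit of that of *Tcf4*. In the annotation 11 genes overlap *Tcf12*, and the strand setting of the counting was not given in the sources used here.

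*Id2* had higher values in all 4 carrier libraries but was not a DEG. The gene lies at chr12:25093799-25097140 on the minus strand, and the promoter window printed above lies inside this span. *Id2* was at 71.0 and 74.7 CPM in +/+, 84.0 and 79.7 in +/N159S, and 88.0 and 88.3 in N159S/N159S T cells. The 3 genotypes did not overlap, with +/N159S between the others. Of all tested genes 14.3% had all 4 carrier libraries above both +/+ libraries, and the share with all 3 genotypes apart was not counted. In N159S/N159S against +/+ the log2 fold change was 0.28 (SE 0.096, 95% interval 0.064 to 0.49) with an edgeR FDR of 0.144. In +/N159S it was 0.17 (-0.043 to 0.38, edgeR FDR 0.425), and between the carriers 0.11 (-0.10 to 0.32, edgeR FDR 0.739). The N159S/N159S value passed in 1 of 7 alternative fits, the one with a term for genes detected (edgeR FDR 0.0207), and the other 6 gave up to 0.287. *Id2* is abundant in NK and effector cells, and the CD8 and NK marker sum was 46.9 and 38.9 CPM in +/+, 33.3 and 37.4 in +/N159S, and 18.1 and 15.2 in N159S/N159S, the reverse of the order of *Id2*. That sum was mostly *Klrd1* and *Cd8b1*, and not every gene of the list had its order. The effector and memory sum was 36.0 and 24.6 CPM in +/+, 36.4 and 52.8 in +/N159S, and 19.9 and 30.9 in N159S/N159S, so that it was above +/+ in both +/N159S libraries, as *Id2* was, and overlapped +/+ in N159S/N159S. The part of these cells in the *Id2* values was not tested.

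*Id3* did not differ beyond its spread between N159S/N159S and +/+. The gene lies at chr4:136143497-136145755 on the plus strand, and the promoter window printed above lies inside this span. It was at 29.3 and 27.4 CPM in +/+, 30.9 and 29.5 in +/N159S, and 27.0 and 29.2 in N159S/N159S. Its log2 fold change was -0.012 in N159S/N159S (95% interval -0.28 to 0.25, edgeR FDR 0.977) and 0.092 in +/N159S (-0.17 to 0.36, edgeR FDR 0.754). *Id1*, at chr2:152736251-152737410 on the plus strand, was scarce, with 15 to 19 reads in a library. It was at 1.37 and 1.28 CPM in +/+, 1.12 and 1.03 in +/N159S, and 0.872 and 1.17 in N159S/N159S. All 4 carrier libraries were below both +/+ libraries, but the log2 fold change of -0.38 in N159S/N159S had an interval from -1.43 to 0.67 (edgeR FDR 0.745), so a difference was not detectable at this depth.

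**Figure D3:**
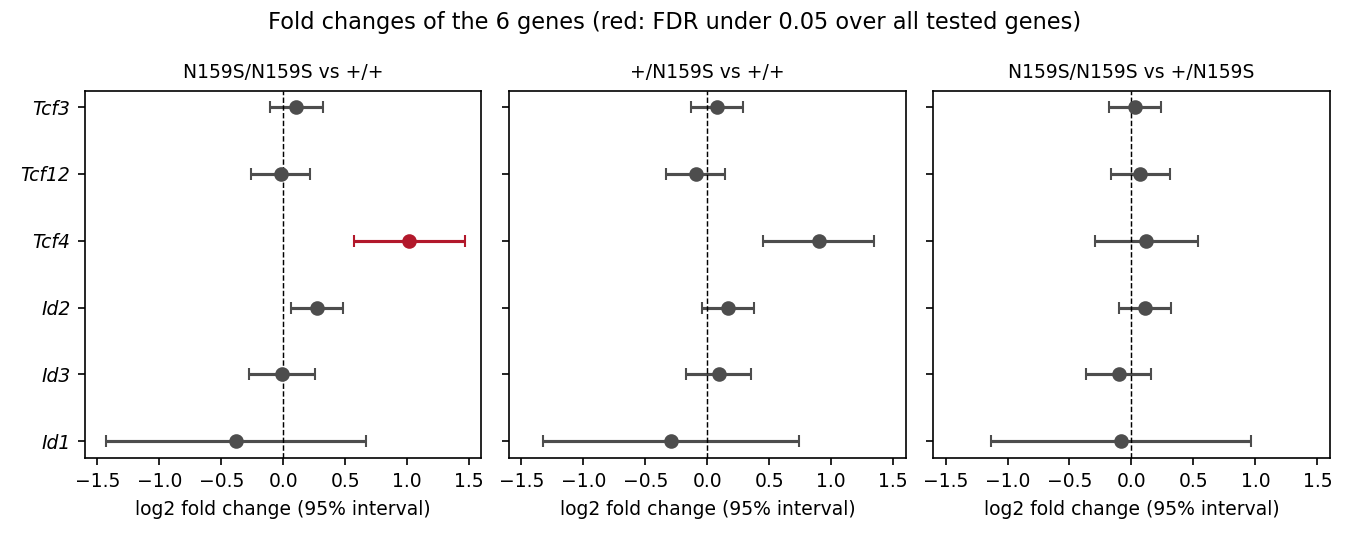
Log2 fold changes (horizontal axis) of the 6 genes with 95% intervals in 3 contrasts of *Ikzf3* genotypes, with a DEG in red and a dashed line at 0. *Tcf4* in N159S/N159S against +/+ (1.02, 0.57 to 1.46) is the 1 DEG, its +/N159S value (0.90) lies close to it, and the *Id1* intervals are the widest.

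Both N159S/N159S libraries exceeded both +/+ libraries for 2 of the 6 genes, *Tcf4* and *Id2*, against 24.3% of all tested genes. Both +/N159S libraries exceeded both +/+ libraries for 4 of the 6, *Tcf3*, *Tcf4*, *Id2* and *Id3*, against 25.0%, and for *Tcf3* and *Id3* the nearest libraries of the groups were less than 1 CPM apart. All 4 carrier libraries were above both +/+ libraries for 2 of the 6 (14.3% of all genes) and below them for 1, *Id1* (12.9%). The median log2 fold change of the 6 genes was 0.048 in N159S/N159S and 0.085 in +/N159S against +/+, beside 0.00018 and 0.011 over all tested genes. The contrasts share the +/+ libraries.

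The balance of inhibitors to E proteins was described by ratios of CPM per kb within a library. Summed Id over summed E protein transcripts was 1.47 and 1.39 in +/+, 1.56 and 1.51 in +/N159S, and 1.51 and 1.58 in N159S/N159S T cells. All 4 carrier ratios were above both +/+ ratios, by a narrow gap. This gap depended on the exon lengths used, and with every annotated exon counted the ratios of carriers and +/+ overlapped. *Id2* over *Id3* was 2.43 and 2.75 in +/+, 2.74 and 2.72 in +/N159S, and 3.27 and 3.04 in N159S/N159S, so that N159S/N159S stood above the other genotypes, which overlapped. *Tcf4* made 1.11 and 1.14% of the E protein sum in +/+, 1.73 and 2.39% in +/N159S, and 2.10 and 2.23% in N159S/N159S, and *Tcf3* made 65.9 to 70.2% of it in all libraries. *Tcf3* over *Tcf12* overlapped between genotypes (2.06 to 2.56). With 2 libraries against 2, a two-sided exact permutation test cannot give a p under 0.333, so these ratios were given without a test.

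**Figure D4:**
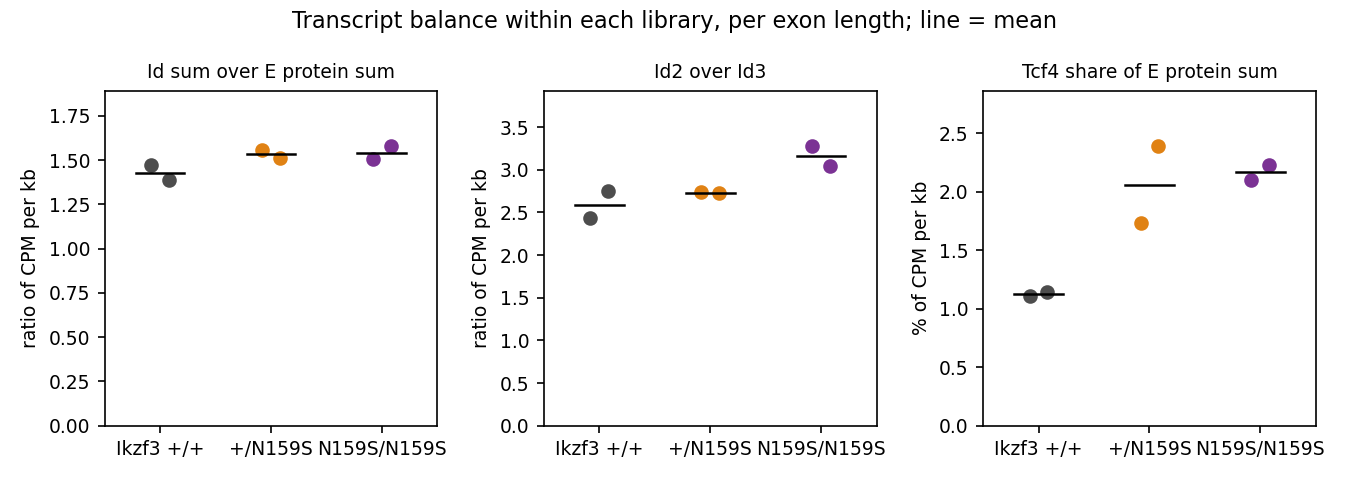
Ratio of summed Id to summed E protein CPM per kb (left), ratio of *Id2* to *Id3* (middle) and *Tcf4* as a percentage of the E protein sum (right), each from 0, by *Ikzf3* genotype, where points are libraries and lines are means. The *Id2* to *Id3* ratio was 3.27 and 3.04 in N159S/N159S and 2.43 to 2.75 in the other 4 libraries, and *Tcf4* was at most 2.39% of the E protein sum in a library.

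The genes with the profile nearest to each member were found by the root mean square (rms) difference of centred log2 CPM over the 6 libraries, among 8718 genes. For *Tcf4* they were *Ccdc107* (rms 0.0966), *Cyp4v3* (0.108) and *Bivm* (0.119), against an rms of 0.467 for *Tcf4* itself about its mean. *Cyp4v3*, a fatty acid hydroxylase, was at 5.66 and 6.72 CPM in +/+, 11.6 and 13.8 in +/N159S, and 14.6 and 14.7 in N159S/N159S. For *Id2* they were *D8Ertd738e* (rms 0.0167), *Vps36* (0.0248) and *Tomm20* (0.0329), the last a mitochondrial import receptor. The nearest to *Tcf3* were *Ercc1*, *Zfp598* and *Dpp3*, to *Tcf12* *Zbtb24*, *Mospd1* and *Vezt*, to *Id3* *AW549877*, *Usp8* and *Ghitm*, and to *Id1* *Cpne1*, *Slc25a12* and *Cnn3*. Likeness over 6 libraries is a description of these libraries only.

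Genes known as E protein targets moved in both directions. Of 17 listed, 13 were tested, and in N159S/N159S against +/+ 1 rose and 2 fell, with a median log2 fold change of -0.30. DEGs were 5.21% of all tested genes in this contrast. Of the 13 targets 4 were called by DESeq2 and 8 had an unadjusted edgeR p under 0.05, beside 2228 of all 12117 tested genes. *Socs3*, a suppressor of cytokine signalling, rose by 0.79 on the log2 scale (SE 0.13, edgeR FDR 0.00528), from 102 and 113 CPM in +/+ to 169 and 204 in N159S/N159S, and was kept in every fit that left out a library. *Dntt*, which adds bases at V(D)J joints, had 102 and 118 reads in +/+, 22 and 43 in +/N159S, and 4 and 8 in N159S/N159S. Its 3 genotypes did not overlap, and 12.9% of all tested genes had all 4 carrier libraries below both +/+ libraries. The log2 fold change of *Dntt* was -4.38 in N159S/N159S (edgeR FDR 0.000399) and -2.04 in +/N159S (edgeR FDR 0.0246).

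*Sox4*, an HMG box factor, fell by 0.92 on the log2 scale in N159S/N159S (edgeR FDR 0.0147), and lost this call without +/+ replicate 1 or N159S/N159S replicate 1. In +/N159S against +/+ 2 of the 13 targets fell, *Dntt* and *Il7r*, which encodes CD127, a marker used in the sort. The *Il7r* value was -0.49 (edgeR FDR 0.0327), and in N159S/N159S it was -0.35 (edgeR FDR 0.0734). The +/N159S calls of *Dntt* and *Il7r* were lost without +/+ replicate 1, +/+ replicate 2 or +/N159S replicate 1. That of *Il7r* was also lost without +/N159S replicate 2, with a replicate block or in a fit of only these genotypes. Over every fit run the log2 fold changes were -2.67 to -1.59 for *Dntt* and -0.53 to -0.45 for *Il7r*. *Cxcr5* was lower in N159S/N159S than in +/N159S (-2.27, edgeR FDR 0.0237), where the B cell markers were lower too, and lost this without +/N159S replicate 1 or N159S/N159S replicate 2 (up to 0.0877). *Ets1*, with the most reads of the list, had a log2 fold change of -0.41 (edgeR FDR 0.178) in N159S/N159S.

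Partners and cofactors of E proteins (17 listed, 10 tested) had 0 DEGs in N159S/N159S against +/+ by edgeR or DESeq2, and 0 with an unadjusted p under 0.05. *Ldb1* and *Ep300*, with the most reads, had log2 fold changes of 0.085 and -0.15. *Lmo2*, a bridging factor in E protein complexes that B cells also express, was at 1.80 and 3.76 CPM in +/+, 9.96 and 14.9 in +/N159S, and 5.35 and 3.29 in N159S/N159S. It was higher in +/N159S than in +/+ (log2 fold change 2.12, edgeR FDR 0.0149, lost without +/+ replicate 1). It was lower in N159S/N159S than in +/N159S (-1.50, edgeR FDR 0.0465). The latter call was lost with a replicate block, without +/N159S replicate 2 or without N159S/N159S replicate 2. Like the B cell markers, it was highest in both +/N159S libraries, and their part in this was not tested.

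Genes upstream of *Id1*, *Id2* and *Id3* gave no DEG in these 3 contrasts. In the SMAD branch, which carries TGFβ and BMP signals, 16 of 17 genes were tested, and 0 were DEGs by edgeR or DESeq2 in any of them (2, 2 and 1 with an unadjusted p under 0.05 in N159S/N159S against +/+, +/N159S against +/+ and N159S/N159S against +/N159S). *Tgfbr2* and *Ski* had the most reads, with log2 fold changes of 0.062 and 0.059 in N159S/N159S. In the EGR branch all 8 genes were tested and 0 were DEGs by edgeR (5, 2 and 1 with an unadjusted p under 0.05, and 0, 1 and 0 by DESeq2). Over all 12117 tested genes, 2228, 1977 and 1418 had an unadjusted edgeR p under 0.05 in these contrasts. *Egr1*, an immediate early gene, averaged 740 CPM in +/+, 553 in +/N159S and 610 in N159S/N159S (log2 fold change -0.28, edgeR FDR 0.208 for the last against +/+), and *Srf* had -0.14. The list medians in N159S/N159S were 0.079 for the SMAD branch and -0.21 for the EGR branch.

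Other basic helix-loop-helix factors of lymphocytes (20 listed, 17 tested) had 3 DEGs in N159S/N159S against +/+, all higher, with a list median of -0.097. DEGs were 5.21% of all tested genes in this contrast. *Tfe3*, a lysosome and metabolism regulator, is on the X chromosome, so genotype and sex cannot be told apart for it in contrasts with +/N159S. It was at 23.9 and 27.9 CPM in +/+, 33.6 and 30.3 in +/N159S, and 47.8 and 51.4 in N159S/N159S. Its log2 fold change was 0.93 (edgeR FDR 0.00149), kept in every fit that left out a library. It was also higher than in +/N159S (0.63, edgeR FDR 0.0273), a call lost with a replicate block or without any 1 of those 4 libraries. *Myc*, a driver of cell growth, rose by 0.44 (edgeR FDR 0.0191, up to 0.134 and lost without any 1 of the 4 libraries compared). *Bhlhe40*, a factor of activated T cells, rose by 1.19 (edgeR FDR 0.0441, lost without +/+ replicate 1 or N159S/N159S replicate 2, up to 0.227). In +/N159S against +/+ 0 of the 17 were DEGs by edgeR or DESeq2. The unadjusted edgeR p was under 0.05 for 2 of them, beside 1977 of all 12117 tested genes. *Max* and *Hif1a*, with the most reads, had log2 fold changes of -0.033 and -0.16 in N159S/N159S.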

How the data were processed

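RNA was extracted from purified splenic T cells, selected for poly(A) and sequenced. Per the labels and the study's methods, the authors trimmed reads with Trimmomatic 0.38.1, mapped them to mm10 with HISAT2 2.2.1 and used HTSeq 2.0.2 to count reads on genes of refGene. The authors deposited raw counts per gene without normalization, and the strand setting was not given in the sources used here. Lines for uncounted reads were left out: reads on no gene, ambiguous, of low quality, not aligned or not uniquely aligned. Depth was 11696461 to 17317260 reads on genes per library, so precision is lowest for *Id1* and *Tcf4*. Libraries of B cells were not analysed here.

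The analysis used edgeR 4.0.16 (R 4.3.3). The filter was filterByExpr on genotype (minimum count 10, minimum total 15), which left 12117 of 25239. Libraries were scaled by TMM, and 1 quasi-likelihood model with a coefficient per genotype was fitted to all 6, with p-values adjusted (Benjamini-Hochberg) over every gene tested and a threshold of 0.05. The scripts were tested on simulated data. CPM per kb used exon lengths from GENCODE M21 on GRCm38, the assembly of mm10. Each genotype's libraries were taken as replicates, and p-values measure only the spread between these libraries. The members and gene lists were chosen with earlier results of these data known. The text names the 6 members, *Ikzf3*, list genes called in a pairwise contrast and the 2 of each list with the most reads, and the 3 genes (mean log2 CPM of at least 3, prior count 2) nearest to each member. Sex-linked genes were named for the comparison of libraries. Some genes of the marker lists are not reported here. Alternatives were DESeq2 1.42.0, its size factors in edgeR, no filter on low counts, a replicate block, a fit of only the genotypes compared, a term for genes detected (1 library of each genotype on each side), no genes of chromosomes X and Y, and each library left out.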

Additional observations from a re-analysis of the deposited data

How the results depend on the processing

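In order, the contrasts are *Ikzf3* N159S/N159S against +/+, +/N159S against +/+, N159S/N159S against +/N159S, and +/N159S against the midpoint. DEGs over all genes numbered 631, 212, 180 and 113. With no filter on low counts they were 1047, 710, 553 and 399, and with a term for genes detected 1760, 1385, 834 and 682. With 1 library left out they ranged over 257 to 734, 83 to 251, 43 to 197 and 45 to 113. Of the 6 members, 1 was a DEG in the first contrast, 2 with the term for genes detected, and 0 to 1 with a library left out. In the second, 0 were DEGs, 1 with no filter, 1 with the term, and 0 to 1 with a library left out. No member passed in the third or the fourth under any alternative run.

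The replicate numbers were shared between genotypes. Over 12117 genes, deviations of same-numbered libraries correlated by -0.167 (+/+ with +/N159S), -0.216 (+/+ with N159S/N159S) and 0.238 (+/N159S with N159S/N159S). The library with more genes detected was replicate 1 in +/+ and replicate 2 in both carrier genotypes. These correlations therefore cannot show whether the numbers paired the libraries. With the replicate block DEGs numbered 495, 149, 135 and 91, and members among them 1, 0, 0 and 0. Of the list genes named, the block ended the calls of *Lef1* in the first contrast, *Il7r* in the second, and *Lmo2*, *Tfe3*, *Cd79b*, *Cd8a* and *Ccl5* in the third.

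Among single genes 14 values changed sign, all of changes that did not pass the test, and the cause was not tested. *Id3* in the first contrast was 0.0017 with no filter. With a library left out, log2 fold changes in the first contrast ranged from -0.092 to 0.056 for *Tcf12* and from -0.061 to 0.043 for *Id3*, and in the second from -0.21 to 0.012 for *Tcf12*. In the third they ranged from -0.031 to 0.10 for *Tcf3*, -0.079 to 0.35 for *Tcf4*, -0.031 to 0.19 for *Tcf12* and -0.28 to 0.12 for *Id1*, and in the fourth from -0.018 to 0.054 for *Tcf3*, -0.20 to 0.022 for *Tcf12* and -0.011 to 0.070 for *Id2*. Depth limits *Id1* most, at 15 to 19 reads a library.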
